A study of Rattus norvegicus with 16 samples.

Results

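Solute carriers are the membrane proteins that move amino acids, sugars, ions, metals, vitamins and metabolites across the plasma membrane and the membranes of organelles, each family with its own substrates. The members described here were the 213 genes whose symbol begins with Slc and a digit, whose brightest probe set had a mean signal of at least 300 over 13 arrays, and which were neither Slc7a11 nor Slc3a2. They came from 293 such genes measured by 399 probe sets on the array, so 80 genes lay below the minimum, and 11286 genes in all were tested. Just inside the minimum stood Slc9a5 at 314 ± 204, Slc25a32 at 310 ± 84.5 and Slc17a4 at 303 ± 126, and just outside it Slc5a2 at 297 ± 191, Slc26a4 at 293 ± 169 and Slc25a23 at 282 ± 108 (mean ± SD, n = 13). Members were set into 14 groups by family knowledge of what they carry, with 33 mitochondrial carriers, 30 amino acid carriers, 27 carriers of metals and heme, 25 of inorganic ions and 25 of vitamins, choline, urea and organic ions as the larger groups. Of the 14, 1 group holds 3 members that bear a carrier's name without being known as carriers, and another holds 15 with no settled substrate. Slc35b1, Slc44a2 and Slc16a9 could be placed otherwise, which would alter the class counts they enter.

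Transport through these proteins follows a few general schemes. Cotransporters use the sodium gradient that the sodium-potassium ATPase maintains to pull a solute inward, exchangers trade 1 solute for another, and facilitators such as the glucose transporters let a solute run down its gradient. Mitochondrial carriers of the Slc25 family pass nucleotides, phosphate and metabolites across the inner membrane, and the Slc35 family loads the Golgi and the endoplasmic reticulum with nucleotide sugars. In muscle, carriers of taurine, creatine and carnitine supply solutes that the tissue holds in large amounts, and the insulin-regulated Slc2a4 takes up glucose.

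The RNA came from rat satellite cells, the stem cells of muscle, taken from the levator ani and used at passage 5. They were kept for 4 h or 48 h in 0.2% DMSO as vehicle, or in a nonsteroidal androgen receptor agonist, abbreviated NARA, at 10 nM. All 4 groups were cultured with 10% charcoal-stripped serum, from which steroids have been removed. The titles call the samples of a group biological replicates. Strain, animals and separate cultures were not given in the sources used here, so the p-values rest on variation among these arrays, and what sets it is not known. Each group was planned with 4 arrays, and the authors left out 3, which leaves vehicle 4 h (n = 4), NARA 4 h (replicates 2 and 3, n = 2), vehicle 48 h (replicates 2, 3 and 4, n = 3) and NARA 48 h (n = 4). These numbers apply to every mean ± SD below.

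Each value is a MAS5 signal, a linear intensity that the authors scaled to the same average on every array, and the 13 arrays had median signals between 539 and 613 and pairwise correlations over the probe sets of 0.928 to 0.962. The number of arrays limits the precision. Of the satellite cell markers, Pax7 and Myf5 had no probe set named for them in the annotation used, and Myod1 averaged 84 ± 87 (n = 13), below the minimum. Myog, Des, Cdh15, Itga7 and Vcam1 passed the minimum, as did 8 of 8 fibroblast markers. The summed signal of the fibroblast markers ran from 452971 to 609045 across the vehicle and NARA arrays at 48 h. That of the 6 satellite cell markers on the array was far lower, from 3432 to 5021. The sums add different genes and probe sets, whose signals are not on a common scale, so the gap between them does not measure cell numbers. RNA was taken from whole cultures. A lower signal of the same gene can therefore mean fewer cells of a type or less RNA per cell, and these cannot be told apart.

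RefSeq promoter windows of the rat build GRCr8, running from 250 bases before to 50 bases after the annotated gene start, were found for 176 of the 213 members and for 8 of the 10 genes that passed the threshold at 48 h. The core of the palindromic site bound by the androgen and glucocorticoid receptors was searched on both strands and was present in 0 of 176 member windows and in 0.439% of all 33465 windows. Its repeat unit AGAACA, also searched on both strands and able to overlap the core, was present in 20 member windows (11.4%) against 20.7% of all windows. Among the 8 windows of genes past the threshold, that of Slc7a6 held it, on the minus strand at position -163 from the start. The core of the amino acid response element, TGATGNAAN, again on both strands, occurred in 6 member windows (3.41%), against 3.97% of all windows, and in 0 of the 8.

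The windows of 3 genes that rose at 48 h are shown, Slc7a6 because it held the hexamer and Slc5a7 and Slc8a1 because their fold changes were the highest of the genes past the threshold. They lie at chr19:50993256-50993555 on the plus strand, chr9:7953460-7953759 on the minus strand and chr6:19023309-19023608 on the plus strand of GRCr8, and the capitals in the Slc7a6 window mark the reverse complement of AGAACA. Capitals are absent from the other two because none of the 3 motifs was found there.
Slc7a6: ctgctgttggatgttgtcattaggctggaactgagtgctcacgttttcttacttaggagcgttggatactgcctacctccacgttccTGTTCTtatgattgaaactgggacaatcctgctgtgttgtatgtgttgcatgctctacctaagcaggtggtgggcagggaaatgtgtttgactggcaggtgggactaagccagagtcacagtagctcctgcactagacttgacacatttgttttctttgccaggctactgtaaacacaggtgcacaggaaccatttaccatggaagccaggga
Slc5a7: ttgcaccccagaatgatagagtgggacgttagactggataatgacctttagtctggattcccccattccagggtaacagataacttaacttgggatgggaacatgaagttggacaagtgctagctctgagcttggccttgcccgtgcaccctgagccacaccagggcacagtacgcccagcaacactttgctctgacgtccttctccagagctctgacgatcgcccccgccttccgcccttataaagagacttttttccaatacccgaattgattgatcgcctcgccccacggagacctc
Slc8a1: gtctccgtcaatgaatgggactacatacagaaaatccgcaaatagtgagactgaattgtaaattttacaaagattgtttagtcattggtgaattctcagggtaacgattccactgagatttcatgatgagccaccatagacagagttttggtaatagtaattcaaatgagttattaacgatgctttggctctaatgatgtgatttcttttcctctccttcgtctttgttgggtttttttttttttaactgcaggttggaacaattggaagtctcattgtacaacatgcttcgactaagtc

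These windows differ in base composition. The G and C content was 48.3% for Slc7a6, 53.0% for Slc5a7 and 36.3% for Slc8a1, against medians of 61.8% over the 176 member windows and 51.7% over all windows. A window follows 1 annotated start per gene, and which start these cells use was not measured. The windows of Slc7a6 and Slc8a1 may reach into coding sequence at their ends, so the start from which the Slc7a6 position is counted may not be the one used.

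At 48 h, 6 members were higher with NARA than with vehicle and 4 were lower at an adjusted p under 0.05, from a limma model over all 20904 probe sets with Benjamini-Hochberg adjustment. Slc12a2, Slc8a1, Slc5a7, Slc7a6, Slc41a2 and Slc44a1 rose by 1.35-fold to 2.97-fold. Slc6a6, Slc2a3, Slc20a2 and Slc27a1 fell by 1.44-fold to 1.92-fold. These 10 genes were 4.69% of the members, and 2.8% of all probe sets tested passed in the same comparison (1.36% higher and 1.44% lower). Here and in the shares below, members count 1 brightest probe set per gene, and all probe sets include a gene's dimmer ones. These shares thus rest on unlike units, and 0 of the members' 64 other tested probe sets passed. The median log2 difference of the members was 0.00 and so was that of all probe sets, and 61.0% of members against 60.2% of all probe sets differed by under 0.25 on the log2 scale. Signals of the vehicle and NARA arrays did not overlap for 40 members (18.8%), against 14.7% of all probe sets. With vehicle 48 h replicate 2 left out 5 members passed, and with all 16 arrays 1 did. When vehicle 48 h replicate 1 alone was put back (14 arrays), 13 passed, the 10 genes among them.

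**Figure D1:**
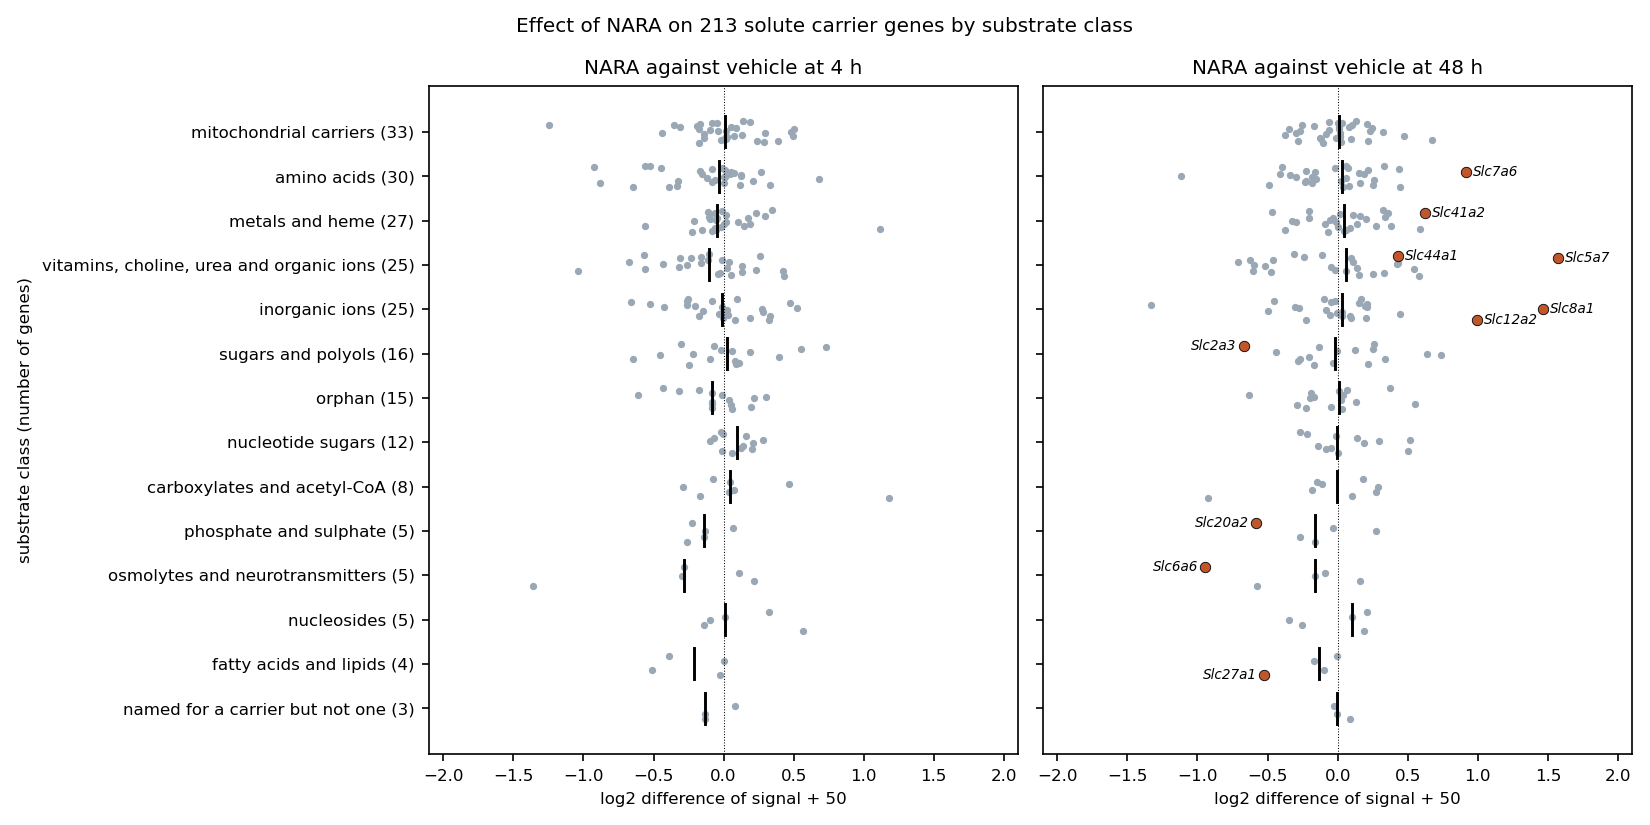
Log2 difference of signal + 50 between NARA and vehicle (horizontal axis) at 4 h (left) and 48 h (right) for each of the 213 members, in rows by substrate class. Grey points are members that missed the threshold, labelled orange points are the 10 genes past it at 48 h, and short black bars are class medians, which lie near 0 in most classes.

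Carriers of inorganic ions held 2 of the 6 genes that rose, both with at least the 2.00-fold difference of Slc12a2. Of 25 members in the class, 0 fell, and the class median was 0.03. Slc12a2, the sodium-potassium-chloride cotransporter NKCC1 that loads cells with chloride and takes part in volume regulation (probe set 1367853_at), read 6717, 6558 and 5718 on the vehicle 48 h arrays and 12855, 13704, 12179 and 11955 on the NARA 48 h arrays. At 4 h its vehicle arrays read 6755, 6747, 6987 and 5972 and its NARA arrays 8572 and 8028. At both times each NARA array was above each vehicle array. Slc12a2 rose 2.00-fold at 48 h, a log2 difference of 1.00 with SE 0.10 (limma, adjusted p = 0.000337), while the 4 h difference of 0.33 with SE 0.12 missed the threshold (limma, adjusted p = 0.893).

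Slc8a1, the sodium-calcium exchanger NCX1 that moves calcium out of the cell (probe set 1372449_at), read 861, 1063 and 931 on the vehicle 48 h arrays and 2040, 3193, 2881 and 2838 on the NARA 48 h arrays. The 2 NARA arrays at 4 h, at 940 and 988, lay within the span of the vehicle arrays at 4 h, which read 598, 869, 727 and 1012. The 4 NARA 48 h arrays were above the 9 other arrays. Slc8a1 rose 2.76-fold at 48 h (log2 difference 1.46, SE 0.19; limma, adjusted p = 0.00131), against a log2 difference of 0.28 at 4 h that missed the threshold.

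Other ion carriers pointed both ways and missed the threshold. Slc12a7, a potassium-chloride cotransporter that moves chloride outward, averaged 1337 ± 17.9 in vehicle and 966 ± 102 in NARA at 48 h, and its groups did not overlap (log2 difference -0.46; limma, adjusted p = 0.0930). Slc24a3, a potassium-dependent sodium-calcium exchanger named here after its values were seen, had the lowest log2 difference of all members at 48 h, -1.33, with 829 ± 172 in vehicle and 344 ± 219 in NARA (limma, adjusted p = 0.0933). Its second tested probe set differed by -0.11.

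**Figure D2:**
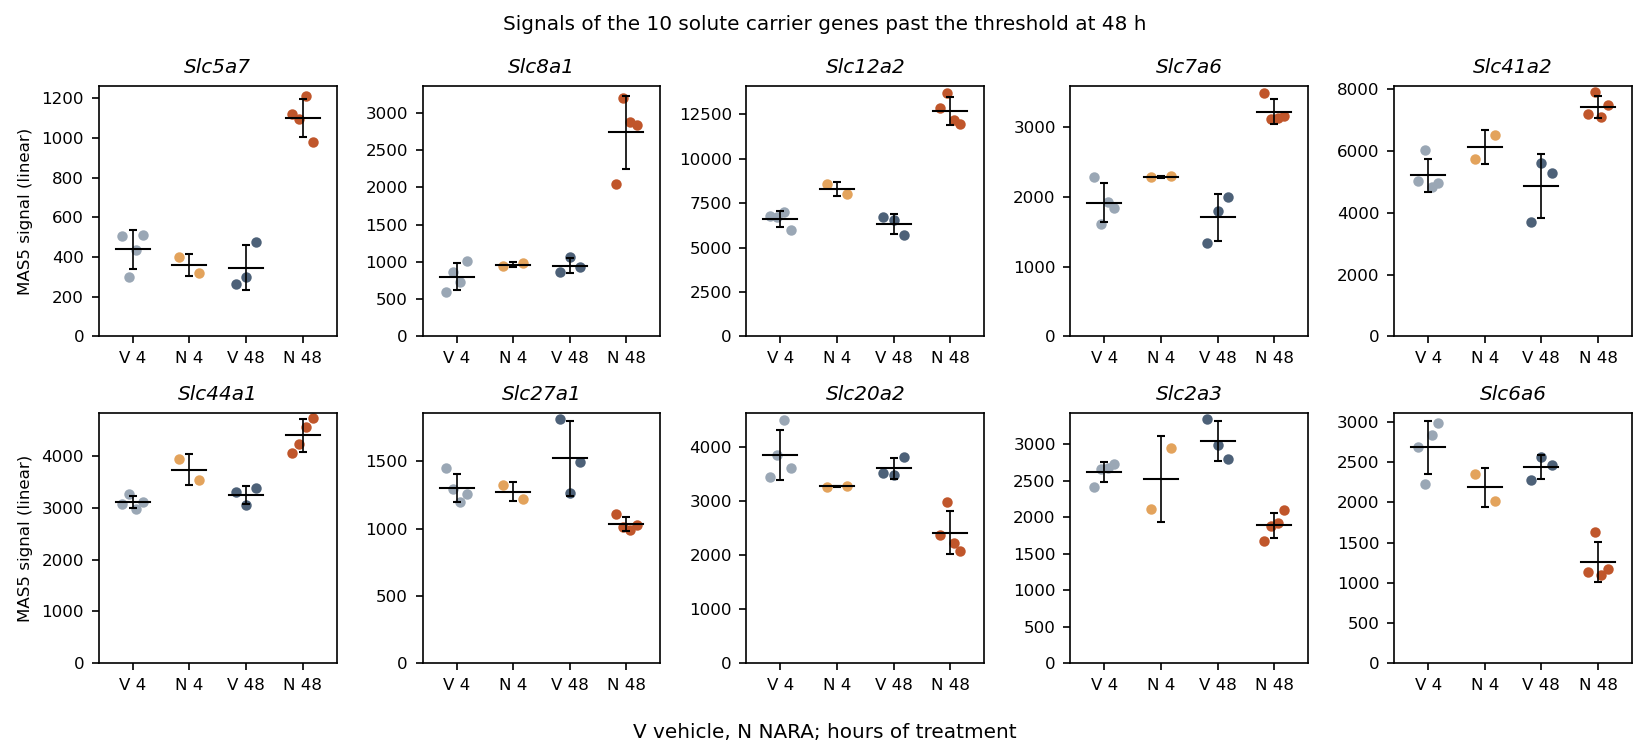
MAS5 signal on a linear axis starting at 0 for the 10 members past the threshold at 48 h, by group (V vehicle, N NARA, hours of treatment). Points are arrays and bars are mean and SD, and in each of the 10 panels the 4 NARA 48 h arrays lie on 1 side of the 3 vehicle 48 h arrays.

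Carriers of choline supplied 2 of the 6 genes that rose. Slc5a7, the high-affinity choline transporter known for supplying acetylcholine synthesis in cholinergic neurons (probe set 1387543_at), read 265, 301 and 474 in vehicle and 1118, 1097, 1213 and 978 in NARA at 48 h. At 4 h it read 506, 301, 434 and 512 in vehicle and 398 and 322 in NARA. The 4 NARA 48 h arrays were above the 9 other arrays, among which the groups overlapped. Slc5a7 rose 2.97-fold at 48 h (log2 difference 1.57, SE 0.20; limma, adjusted p = 0.00148), and its 4 h difference was -0.23.

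Slc44a1, a choline transporter-like protein of the plasma membrane and mitochondria (probe set 1373054_at), moved less. It read 3301, 3048 and 3377 in vehicle and 4046, 4216, 4559 and 4732 in NARA at 48 h, and 3075, 3253, 2973 and 3103 in vehicle and 3940 and 3521 in NARA at 4 h. The NARA arrays were above the vehicle arrays at both times. Slc44a1 rose 1.35-fold at 48 h (log2 difference 0.43, SE 0.10; limma, adjusted p = 0.0358). That call held in 4 of 13 fits that each left out 1 array, with adjusted p between 0.0426 and 0.142, the highest without vehicle 48 h replicate 3, and the gene's other 2 tested probe sets differed by 0.22 and -0.10.

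Slc44a2, a second choline transporter-like gene, averaged 5649 ± 946 in vehicle and 3746 ± 799 in NARA at 48 h with no overlap (log2 difference -0.60; limma, adjusted p = 0.121). In the class of vitamins, choline, urea and organic ions, 2 of 25 members rose, 0 fell and the median was 0.06. Slc16a9, a monocarboxylate transporter relative linked to carnitine efflux, differed by -0.52 in that class without passing (limma, adjusted p = 0.147). The carnitine importer Slc22a5 differed by 0.09 (limma, adjusted p = 0.787).

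Among the 30 amino acid carriers, 1 rose, 0 fell and the median was 0.03. Slc7a6 encodes y+LAT2, the light chain that trades cationic for neutral amino acids when paired with the heavy chain Slc3a2 (probe set 1373629_at). It read 1336, 1792 and 1994 in vehicle and 3482, 3114, 3128 and 3164 in NARA at 48 h, and 2280, 1605, 1928 and 1842 in vehicle and 2280 and 2298 in NARA at 4 h. The groups were apart at 48 h, whereas at 4 h the highest vehicle array lay between the NARA arrays, level with the lower of them. Slc7a6 rose 1.88-fold at 48 h (log2 difference 0.91, SE 0.15; limma, adjusted p = 0.00661).

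The partner itself, excluded from the members along with Slc7a11, averaged 9468 ± 305 in vehicle and 12088 ± 727 in NARA at 48 h (log2 difference of Slc3a2 0.35, SE 0.10; limma, adjusted p = 0.0850). Slc7a11, the cystine-glutamate exchanger, differed by 0.33 (limma, adjusted p = 0.373).

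The broad amino acid importers missed the threshold at 48 h. Slc7a5, the large neutral amino acid carrier LAT1, averaged 1207 ± 182 in vehicle and 1292 ± 299 in NARA. Slc1a5, a glutamine carrier, averaged 3593 ± 438 and 3851 ± 956, and the cationic carrier Slc7a1 averaged 3069 ± 267 and 3500 ± 301. Their log2 differences were 0.08, 0.07 and 0.19, and each gene's groups overlapped. Slc38a2, the SNAT2 carrier of small neutral amino acids, averaged 29528 ± 556 and 26526 ± 2303 without overlap (log2 difference -0.16; limma, adjusted p = 0.514). A larger difference that also missed was that of Slc6a18, a neutral amino acid carrier best known from kidney, at 585 ± 81.6 in vehicle and 260 ± 123 in NARA (log2 difference -1.12; limma, adjusted p = 0.0728).

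Carriers of osmolytes and neurotransmitters were 5 genes, of which 1 fell and 0 rose, with a median of -0.16. Slc6a6, the taurine transporter (probe set 1374531_at), read 2279, 2566 and 2466 in vehicle and 1134, 1634, 1097 and 1166 in NARA at 48 h. At 4 h it read 2682, 2230, 2833 and 2986 in vehicle and 2358 and 2017 in NARA, so the groups overlapped at 4 h and were apart at 48 h. Slc6a6 fell 1.92-fold at 48 h (log2 difference -0.94, SE 0.15; limma, adjusted p = 0.00650), and its second tested probe set differed by -1.18 without passing (limma, adjusted p = 0.192). Slc6a8, the creatine transporter, averaged 5756 ± 351 in vehicle and 5185 ± 812 in NARA (log2 difference -0.16; limma, adjusted p = 0.611).

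Of 16 carriers of sugars and polyols, 1 fell, 0 rose and the median was -0.02. Slc2a3, the high-affinity glucose transporter GLUT3 (probe set 1372326_at), read 3345, 2985 and 2805 in vehicle and 1679, 1882, 1918 and 2097 in NARA at 48 h. At 4 h it read 2413, 2664, 2671 and 2737 in vehicle and 2113 and 2944 in NARA, where the NARA arrays lay on either side of the vehicle arrays. Slc2a3 fell 1.59-fold at 48 h (log2 difference -0.67, SE 0.13; limma, adjusted p = 0.0173). The call was lost without vehicle 48 h replicate 2 (adjusted p = 0.0802) or replicate 3 (adjusted p = 0.063) in limma fits, and the second tested probe set differed by -0.37.

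Slc2a1 and Slc2a4 missed the threshold. Slc2a1, the basal transporter GLUT1, averaged 4415 ± 490 in vehicle and 4402 ± 530 in NARA at 48 h (log2 difference -0.01, SE 0.12). Slc2a4, the insulin-regulated GLUT4, averaged 245 ± 74.3 and 411 ± 119, dim signals whose groups overlapped (log2 difference 0.64; limma, adjusted p = 0.241). For the myo-inositol carrier Slc5a3 the log2 difference was -0.27 (limma, adjusted p = 0.575).

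Phosphate and sulphate carriers were 5 genes, of which 1 fell and 0 rose. Slc20a2, a sodium-phosphate cotransporter of the plasma membrane (probe set 1372747_at), read 3507, 3474 and 3815 in vehicle and 2374, 2981, 2223 and 2068 in NARA at 48 h. The 2 NARA arrays at 4 h, at 3260 and 3275, were below the vehicle arrays at 3447, 3843, 4498 and 3609. Its groups were thus apart at both times. Slc20a2 fell 1.49-fold at 48 h (log2 difference -0.58, SE 0.13; limma, adjusted p = 0.0454), a call that held in 2 of 13 fits with 1 array left out (adjusted p 0.0146 to 0.119, the highest without vehicle 48 h replicate 2). Its second tested probe set differed by -0.84 (limma, adjusted p = 0.0673), and its relative Slc20a1 averaged 8826 ± 587 in vehicle and 7326 ± 643 in NARA without passing (log2 difference -0.27; limma, adjusted p = 0.247).

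In the class of fatty acids and lipids, 1 of 4 members fell, and the 4 log2 differences ran from -0.52 to -0.00. Slc27a1, the fatty acid transport protein FATP1 that takes long-chain fatty acids into muscle and fat (probe set 1367789_at), read 1816, 1263 and 1490 in vehicle and 1108, 1014, 989 and 1026 in NARA at 48 h. At 4 h it read 1446, 1295, 1199 and 1259 in vehicle and 1324 and 1223 in NARA, with overlap. Slc27a1 fell 1.44-fold at 48 h (log2 difference -0.52, SE 0.12; limma, adjusted p = 0.0484). It stayed past the threshold in 1 of 13 fits with 1 array left out, that without vehicle 48 h replicate 3 (adjusted p = 0.0333), and the highest adjusted p was 0.169 without replicate 2 of the same group.

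Metal and heme carriers held 1 gene that rose among 27, with a median of 0.05. Slc41a2, a carrier of magnesium (probe set 1384934_at), read 3703, 5618 and 5283 in vehicle and 7199, 7897, 7100 and 7491 in NARA at 48 h, and 5028, 6023, 4840 and 4953 in vehicle and 5733 and 6512 in NARA at 4 h. Its groups were apart at 48 h and overlapped at 4 h. Slc41a2 rose 1.54-fold at 48 h (log2 difference 0.62, SE 0.15; limma, adjusted p = 0.0450). The call held without vehicle 4 h replicate 2 or vehicle 48 h replicate 3 and was lost in the other 11 fits that left out 1 array (adjusted p up to 0.130, without vehicle 48 h replicate 2), and a second tested probe set differed by 0.14.

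Iron and zinc carriers of the same class missed the threshold. Slc39a14, which imports zinc and iron, averaged 2684 ± 245 in vehicle and 3506 ± 236 in NARA at 48 h with no overlap (log2 difference 0.38, limma, adjusted p = 0.131). A second tested probe set of Slc39a14 differed by 0.12 (limma, adjusted p = 0.760). Slc48a1, a heme carrier of lysosomes, averaged 7842 ± 1401 and 5971 ± 421 (log2 difference -0.38; limma, adjusted p = 0.151). The iron exporter Slc40a1 differed by -0.03, the zinc exporter Slc30a1 by -0.21 and the iron importer Slc11a2 by -0.07.

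Mitochondrial carriers, the largest class with 33 genes, had 0 members past the threshold at 48 h in limma and a median of 0.01. An unadjusted p under 0.05 was reached by 3 of the 33, by 40 of all 213 members and by 16% of all probe sets. The adenine nucleotide carriers Slc25a4 and Slc25a5 differed by -0.13 and 0.03, and the phosphate carrier Slc25a3 by 0.02. The smallest p-values belonged to Slc25a11, which exchanges oxoglutarate for malate (7072 ± 554 in vehicle and 5564 ± 699 in NARA), and Slc25a33, a pyrimidine nucleotide carrier (794 ± 47.0 and 1307 ± 196). Both had groups apart, with adjusted p of 0.139 and 0.143 in limma. The carnitine-acylcarnitine carrier Slc25a20 differed by -0.06 (limma, adjusted p = 0.905).

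The 12 nucleotide sugar carriers also had 0 calls at 48 h, though 4 had p under 0.05 before adjustment. Slc35b1, a carrier of the endoplasmic reticulum whose place in this class is open to doubt, read 4561, 4795 and 4310 in vehicle and 6714, 5327, 6609 and 7414 in NARA. Slc35a2, which brings UDP-galactose into the Golgi, read 3148, 3310 and 2464 in vehicle and 4596, 4740, 3771 and 3977 in NARA. Both had each NARA array above each vehicle array. Their log2 differences of 0.50 and 0.52 had limma adjusted p of 0.0589 and 0.0706, and a second tested probe set of Slc35b1 differed by 0.90 (adjusted p = 0.0935).

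The remaining classes had 0 calls. Among 8 carriers of carboxylates and acetyl-CoA, the lactate carrier Slc16a1 averaged 5727 ± 643 in vehicle and 6908 ± 479 in NARA at 48 h without overlap (log2 difference 0.27; limma, adjusted p = 0.236), and the lactate exporter Slc16a3 averaged 777 ± 144 and 965 ± 193. Among 5 nucleoside carriers, Slc29a1 averaged 1974 ± 84.6 and 1660 ± 241 (log2 difference -0.25). Among 15 carriers with no settled substrate, Slc22a17, known as a lipocalin receptor, averaged 1857 ± 259 and 2764 ± 573 (log2 difference 0.55; limma, adjusted p = 0.120).

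At 4 h, 0 members and 0 of 20904 probe sets (0%) passed the threshold in limma. At an unadjusted p under 0.05 there were 14 of 213 members, 3 higher and 11 lower, beside 4.75% of all probe sets, and NARA and vehicle signals were apart for 18.8% of members and 14.3% of probe sets. Medians were -0.02 for the members and 0.01 for all probe sets. Of the 10 genes past the threshold at 48 h, 9 had the same sign at 4 h and 3, Slc12a2, Slc44a1 and Slc20a2, had groups apart then. The 4 h and 48 h comparisons share no arrays.

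**Figure D3:**
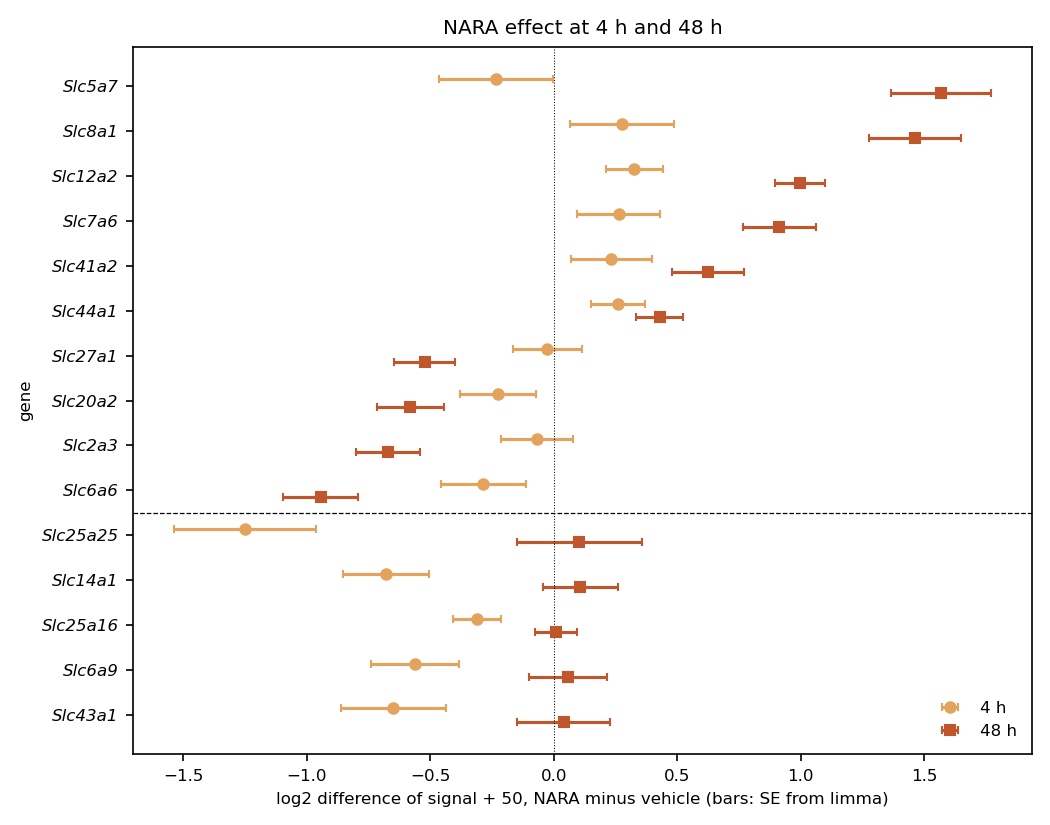
Log2 difference of signal + 50, NARA minus vehicle, at 4 h (circles) and 48 h (squares), with the standard error from limma as bars, for the 10 members past the threshold at 48 h (above the dashed line) and 5 of the 6 members with the smallest p at 4 h (below it; the sixth is Slc12a2). The 5 lower genes, chosen by their p at 4 h, have differences between -1.25 and -0.31 at 4 h and between 0.01 and 0.11 at 48 h.

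The 6 smallest p-values at 4 h belonged to Slc12a2, described above, and to 5 genes with negative differences at 4 h that missed the threshold. Slc25a25, a mitochondrial carrier of ATP-magnesium and phosphate, read 585, 225, 251 and 322 in vehicle and 89.2 and 128 in NARA at 4 h, and 431 ± 71.0 and 466 ± 70.9 at 48 h. Both early NARA arrays were below the other 11 of the 13 arrays kept, at signals under the minimum used for the mean (4 h log2 difference -1.25, SE 0.29; limma, adjusted p = 0.404). Slc14a1, a urea transporter, read 859, 903, 1042 and 818 in vehicle and 545 and 545 in NARA at 4 h (log2 difference -0.68; limma, adjusted p = 0.529).

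Glycine and neutral amino acid uptake genes were among them. Slc6a9, the glycine transporter GlyT1, averaged 3050 ± 442 in vehicle and 2038 ± 151 in NARA at 4 h (log2 difference -0.56; limma, adjusted p = 0.798). Its other tested probe sets differed by -0.71 and -0.05 at 4 h and by -0.14 and -0.70 at 48 h, without passing. Slc43a1, a carrier of branched-chain amino acids, averaged 424 ± 104 and 246 ± 5.38 (log2 difference -0.65; limma, adjusted p = 0.836). For Slc25a16 of the mitochondrial family the averages were 2704 ± 152 and 2169 ± 76.5 (log2 difference -0.31; limma, adjusted p = 0.791). In all 5 genes the NARA arrays at 4 h were below the vehicle arrays at 4 h, and in none did the groups separate at 48 h. These genes were picked for a small p at 4 h, which favours groups apart at that time. Groups were apart at 4 h for 14.3% of all probe sets, so the pattern does not show an early effect.

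**Figure D4:**
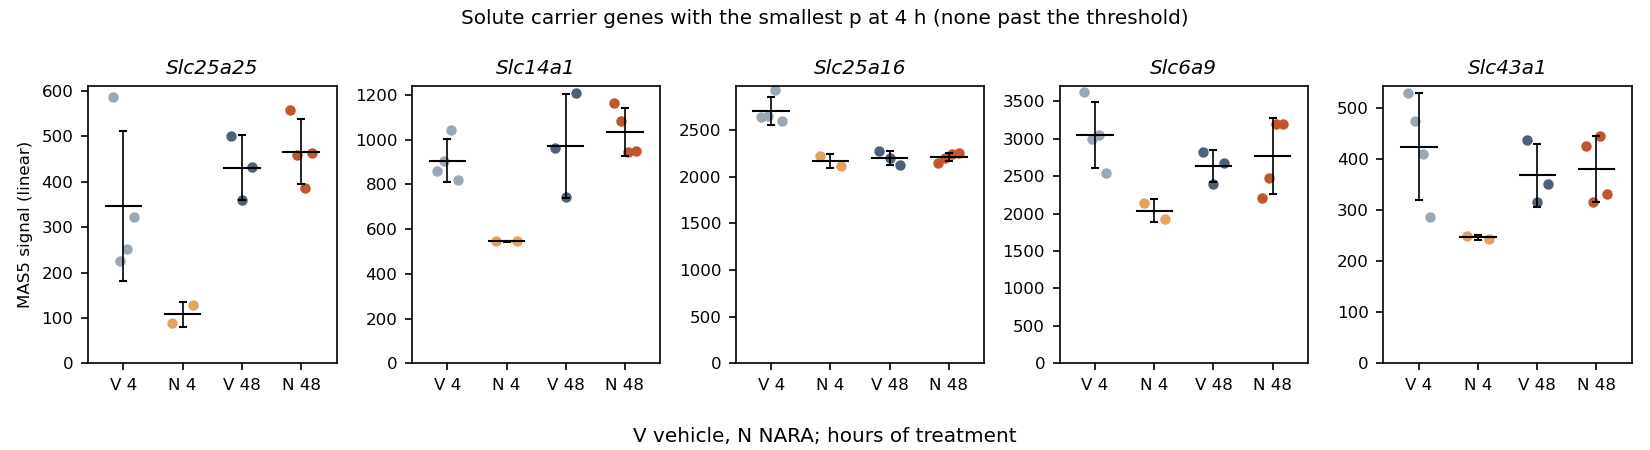
MAS5 signal on a linear axis starting at 0 for 5 members with the smallest p at 4 h, by group (V vehicle, N NARA, hours of treatment). Points are arrays and bars are mean and SD, and the 2 NARA 4 h arrays lie below the 4 vehicle 4 h arrays in each panel, while the 48 h groups overlap. Choosing genes by their p at 4 h favours such separation at 4 h.

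By class at 4 h the medians ran from -0.28 for osmolytes and neurotransmitters to 0.09 for nucleotide sugars. With 2 NARA arrays, the difference at 4 h has a wider error than at 48 h for the same gene, as for Slc8a1 with SE 0.21 against 0.19.

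Whether NARA acted differently at the 2 times was tested as a contrast of the same limma model, where 26 of 20904 probe sets (0.124%; 0.0574% with a more positive effect at 48 h and 0.067% with a more negative one) and 0 members passed the threshold. At an unadjusted p under 0.05 there were 23 of 213 members, beside 9% of all probe sets. Of the 23, 15 had a more positive effect at 48 h and 8 a more negative one. Slc5a7 came nearest, with a difference of 1.80 (SE 0.31; limma, adjusted p = 0.0583), followed at a distance by Slc12a2 at 0.67 (adjusted p = 0.177) and Slc8a1 at 1.19 (adjusted p = 0.184). Without vehicle 4 h replicate 2, and likewise without vehicle 48 h replicate 4, 1 member passed, and it was Slc5a7. For the 10 genes past the threshold at 48 h, a change of the effect with time is not shown by a passed test.

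Culture time in vehicle gave 0 calls among the members and 0 of 20904 probe sets (0%) in limma. At an unadjusted p under 0.05 there were 14 members, 5 higher and 9 lower at 48 h, against 7.35% of all probe sets, and groups did not overlap for 7.04% of members and 8.9% of probe sets. The smallest p belonged to Slc25a5, the adenine nucleotide carrier ANT2, at 24143 ± 1629 at 4 h and 18221 ± 976 at 48 h (log2 difference -0.40; limma, adjusted p = 0.450). The lactate exporter Slc16a3 averaged 1267 ± 178 at 4 h and 777 ± 144 at 48 h (limma, adjusted p = 0.498), and the myo-inositol carrier Slc5a3 averaged 1024 ± 230 and 611 ± 28.6 (limma, adjusted p = 0.553). This comparison uses the same vehicle arrays as the NARA comparisons.

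Genes that work beside the carriers were counted from a list of pumps, partners and other transporter families. Of 17 ATP-driven pumps tested, among them the sodium-potassium ATPase that sets the gradient for cotransport, 0 passed at 48 h, and the median was 0.12. The sodium pump subunit Atp1b3 averaged 17354 ± 2766 in vehicle and 12843 ± 605 in NARA (log2 difference -0.42; limma, adjusted p = 0.0730). Of 30 ABC transporters and 7 organic anion carriers of the Slco family, 0 passed, with Abcb1a, a drug efflux pump, at 0.89 (limma, adjusted p = 0.0531).

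Of 10 partners and regulators of carriers, 1 rose and 0 fell. Sgk1, a kinase known to regulate many carriers and channels, averaged 12625 ± 529 in vehicle and 22154 ± 1242 in NARA at 48 h (log2 difference 0.81, SE 0.09; limma, adjusted p = 0.000749). At 4 h it averaged 12429 ± 797 and 18081 ± 1028 (log2 difference 0.54; limma, adjusted p = 0.286). Emb, a chaperone of lactate carriers, differed by 0.44 (adjusted p = 0.0560) and Txnip, which promotes the removal of glucose transporters from the cell surface, by -0.46 (adjusted p = 0.0684) at 48 h in limma.

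Markers of other cell types moved with the 48 h comparison in part. The fibroblast markers Lum and Pdgfra fell, by 1.06 and 0.75 on the log2 scale (limma, adjusted p = 0.000248 and 0.0454), as 2 of 8 fibroblast markers tested, while the summed signal of the 8 overlapped between the groups. The collagens Col3a1 and Col1a2, which take up much of that sum, differed the other way by 0.39 and 0.23 without overlap (limma, adjusted p = 0.124 and 0.446), and Dcn differed by -0.56 (adjusted p = 0.0822). The summed signal of 4 smooth muscle markers was 13373 to 15375 in vehicle and 8670 to 12450 in NARA, and that of the liver markers on the array 2236 to 3235 and 3244 to 3795, with 0 markers of either list past the threshold. Summed macrophage, endothelial, adipocyte, Schwann cell and satellite cell markers overlapped. The part of these markers in the carrier results was not tested.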

How the data were processed

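Biotin-labelled targets from 5 µg of RNA per sample were hybridised to Affymetrix Rat Genome 230 2.0 arrays, per the labels' protocols. The deposited values are MAS5 intensities (signals), scaled by the authors to a trimmed mean of 1500 per the series' design text, which also names the 3 arrays they left out. The labels' protocols and the design text describe different RNA extractions (a reagent and a column kit), and the sources used here do not settle which applied. Control probe sets (57) were set aside, and 20904 of the other 31042 had a mean of at least 300 over 13 arrays. Values were taken as log2(signal + 50), so folds are on that scale and understate changes of dim genes. A group-means model over 4 groups was fitted with limma 3.58.1 in R 4.3.3 (9 residual and 2.4 prior degrees of freedom), with 4 contrasts, two-sided p-values and Benjamini-Hochberg adjustment over all 20904. Scripts were tested on simulated data in which 200 of 20904 probe sets changed per run. At 1.5-fold, 8% of the changes were recovered at 48 h and 2.5% at 4 h, and at 2-fold 55.8% and 45.7%. False calls made up 9.43% of the calls at 48 h and 21.1% at 4 h in the 1.5-fold runs. These rates depend on the share of probe sets changed, and 586 were called in the data at 48 h. The simulation also took each probe set's observed spread as its true spread, so the rates may not hold for the real comparisons.

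Gene names came from the platform annotation (20826 probe sets with 1 symbol, 436 with several, 9780 with none), and 213 of 213 members were found in RefSeq by gene ID. The brightest probe set stood for a gene; 49 members had several tested, and 36 of these 64 other probe sets lay on the same side of 0 at 48 h, with 0 past the threshold. Genes named were those past the threshold in any contrast, the 3 smallest p at 48 h and 2 brightest in vehicle of each class, the 6 smallest p at 4 h, the neighbours of the minimum and a list of well-known carriers. Members, classes and lists were chosen with earlier results of these data known. Alternatives were other sets of arrays, offsets, minima, a quantile normalization, another prior, averaged probe sets, a block for the replicate number, and fits without each array in turn.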

Additional observations from a re-analysis of the deposited data

Results flagged for a closer look

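In 11 of the 148 gene and group combinations checked among named genes, 1 array lay farther from the rest than Dixon's test allows for groups of 4 arrays, and chance alone gives about 1 in 20.

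Among the genes past the threshold at 48 h, Slc6a6 read 1634 on NARA 48 h replicate 2 against 1097 to 1166 on the other arrays of the group, and Slc7a6 read 3482 on NARA 48 h replicate 1 against 3114 to 3164. Slc41a2 read 6023 on vehicle 4 h replicate 2 against 4840 to 5028. On NARA 48 h replicate 2, Slc39a1, a zinc importer, read 17560 against 11350 to 11901, and Slc35c1, the GDP-fucose carrier, read 2181 against 1908 to 1944. On NARA 48 h replicate 3, Slc38a2 read 23104 against 27433 to 28115, Slc27a2 read 965 against 463 to 523 and Slc6a8 read 6394 against 4653 to 4863. The citrate and dicarboxylate carrier Slc13a2 read 668 on NARA 48 h replicate 4 against 177 to 209. In vehicle at 4 h, Slc25a20 read 2160 on replicate 2 against 1389 to 1504, and Slc25a16 read 2929 on replicate 3 against 2596 to 2648.

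The NARA 4 h arrays that the authors left out gave signals outside the comparisons. On replicate 1, 26 members were at least 4-fold above the vehicle 4 h mean, and on replicate 4, 27 were. Each array kept was set against the other kept arrays of its own group instead, and 0 to 1 members were 4-fold higher there. Slc38a4, Slc27a2, Slc25a25, Slc22a7, Slc25a15 and Slc4a4 had the highest ratios on both. Their correlation with the 13 kept arrays was 0.583 to 0.603 for replicate 1 and 0.560 to 0.585 for replicate 4.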

How the results depend on the processing

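Of the 10 genes past the threshold at 48 h, Slc8a1 held in 13 of 13 fits without 1 array and in 11 of 11 other alternatives, and Slc12a2, Slc5a7, Slc7a6 and Slc6a6 held in 13 of 13 of the former. The 10 genes became 1 with all 16 arrays (the gene left was Slc8a1) and 4 with only the 2 groups compared. They became 6 with no minimum signal and 17 with a trended and robust prior. When vehicle 48 h replicate 1 alone was put back, 13 genes passed, the 10 among them. Leaving out 1 array gave 5 to 9 genes, moving the count by over 1.5 times without vehicle 4 h replicate 1 (6) or 4 (6), vehicle 48 h replicate 2 (5) and NARA 48 h replicate 3 (6) or 4 (6). For the whole table, 586 probe sets became 39 with all 16 arrays, 217 with 2 groups, 355 with no minimum, 1069 with a minimum of 1000, 1098 with the other prior and 312 with the block. With the replicate number as a block 5 genes passed. In their deviations from group means, 16 same-numbered pairs correlated at -0.04 to 0.04 and the 46 other pairs at -0.05 to 0.05. These values do not settle whether the numbers pair the samples. The 2 NARA 4 h arrays deviate from their mean in mirror image, which forces opposite signs. For the difference of effects, 0 became 1 with an offset of 200, a minimum of 1000 or quantile normalization and without either of 2 arrays (0 to 1 over arrays left out), and 2 with the other prior. The 4 h and the vehicle comparisons kept 0 genes under each alternative. Of 3512 alternative values of named genes, 176 changed sign, 0 of them for values past the threshold; 73 alternatives at 48 h lost a call and 19 gained one. Where a cause is not evident from fewer arrays or probe sets, the cause was not tested. Signals near the minimum carry the widest errors.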

Other observations

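Several carriers had vehicle and NARA signals apart at 48 h without passing the threshold. Counting also those that passed, groups were apart for 18.8% of members and 14.7% of all probe sets, so being apart does not single these genes out. In the Golgi and endoplasmic reticulum group, the GDP-fucose carrier Slc35c1 averaged 1617 ± 161 in vehicle and 1993 ± 126 in NARA, and the nucleotide sugar carrier Slc35b4 averaged 5664 ± 595 and 4693 ± 265. Slc35f5, with no settled substrate, averaged 7777 ± 331 and 6366 ± 210. The lysosomal nucleoside carrier Slc29a3 averaged 2481 ± 355 and 1934 ± 129, a log2 difference of -0.34, and its second tested probe set differed by -0.77 (limma, adjusted p = 0.0528). Slc7a6os, which shares the name of Slc7a6 but is not a carrier, averaged 3161 ± 142 in vehicle and 3208 ± 681 in NARA, with overlap. In each pair n = 3 for vehicle and n = 4 for NARA.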
